A study of Mus musculus with 6 samples.

Results

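Major urinary protein (Mup) genes were followed in the livers of male C57BL/6J mice, an inbred laboratory strain, after a choline- and folate-deficient diet. All array spots that were not controls and whose gene name began with Mup and a digit were taken. This gave 4 of 27962 gene names and 7 of 41174 probes, under Mup1 (3 probes), Mup3 (2 probes), Mup4 and Mup5 (1 probe each). Mice were randomised at 8 weeks of age, fed for 12 weeks and killed at 20 weeks. The deficient diet, called CFD, held no choline, no folic acid and 0.17% methionine, and it was iron-supplemented and made from amino acids. Control mice ate that same base with 0.3% choline bitartrate, 2 mg/kg folic acid and 0.4% methionine, so iron supplementation was shared by both groups. There were 3 arrays of liver RNA per group, each with 1 dye, Cy3. The labels number the replicates and do not say that each was a separate mouse, so the p-values cover only sample-to-sample spread, some of which may be technical. Livers numbered below are arrays, by replicate number.

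Major urinary proteins are small lipocalins, barrel-shaped proteins that carry hydrophobic molecules. Hepatocytes of adult male mice make and secrete them in bulk, and they pass from the blood into the urine, where they hold and slowly release pheromones. Their genes form a cluster of near-identical copies and pseudogenes. Their transcription in the liver depends on the pulses of growth hormone typical of males, which act through the growth hormone receptor and the transcription factor STAT5B, and it also responds to thyroid hormone, glucocorticoids and insulin signalling.

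Signals of a Mup probe may come from several copies. The RefSeq table of mouse assembly GRCm38.p6 holds 22 Mup genes, all on chromosome 4, and 24 entries named as Mup pseudogenes. The names have also moved over time: in that table Mup1 is an older name of Mup12 and Mup4, Mup3 of Mup7, Mup4 of Mup2 and Mup5 of Mup8. Names below are therefore those of the array files. Of the Mup1 probes, A_51_P180314 lies at chr4:60502405-60502464 and cites a RIKEN clone that RefSeq now places under Mup10. Mup1 probe A_51_P461703 spans chr4:60420781-60421004 and lists transcripts of 3 genes, Mup1, Mup2 and Mup5. Mup1 probe A_52_P348256 spans chr4:60951764-60953063. Mup3 probe A_52_P232508 spans chr4:61517162-61517210, and Mup3 probe A_52_P232507 has no position in the files. The Mup4 probe A_51_P266883 lies at chr4:59998341-59998400 and the Mup5 probe A_52_P412506 at chr4:61268759-61268818. These positions are in build mm7, on the minus strand. Whether a probe lies in a coding exon or a UTR was not analysed here. A span wider than the others, as for A_52_P348256 with 1300 bases, is given as the files give it.

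The promoter sequences show how alike the copies are upstream of their starts. RefSeq windows of 300 bases, from 250 bases before the start to 50 after it, were held for 14 Mup genes, with none listed for Mup1 or Mup5. Shown 5′ to 3′ are the windows of Mup4, Mup3 and Mup10, all from GRCm38.p6 and the minus strand, because they are tied to probes whose diet differences are compared below. Mup4 is chr4:59960618-59960917, Mup3 is chr4:62087268-62087567 and Mup10 is chr4:60582106-60582405. Capitals mark matches to TATATAA, the core of a promoter box bound by the general transcription machinery, on either strand.
Mup4: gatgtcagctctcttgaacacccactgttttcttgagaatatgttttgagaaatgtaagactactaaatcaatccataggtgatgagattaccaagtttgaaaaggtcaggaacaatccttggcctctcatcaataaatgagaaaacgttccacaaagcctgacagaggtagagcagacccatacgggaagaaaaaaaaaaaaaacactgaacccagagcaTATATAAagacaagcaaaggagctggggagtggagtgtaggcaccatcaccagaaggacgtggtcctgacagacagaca
Mup3: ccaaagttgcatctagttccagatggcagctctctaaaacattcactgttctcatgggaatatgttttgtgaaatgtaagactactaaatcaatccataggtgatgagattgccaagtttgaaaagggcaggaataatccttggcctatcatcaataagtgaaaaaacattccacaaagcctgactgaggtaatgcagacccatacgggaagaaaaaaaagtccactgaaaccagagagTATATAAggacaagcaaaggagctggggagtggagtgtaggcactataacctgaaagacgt
Mup10: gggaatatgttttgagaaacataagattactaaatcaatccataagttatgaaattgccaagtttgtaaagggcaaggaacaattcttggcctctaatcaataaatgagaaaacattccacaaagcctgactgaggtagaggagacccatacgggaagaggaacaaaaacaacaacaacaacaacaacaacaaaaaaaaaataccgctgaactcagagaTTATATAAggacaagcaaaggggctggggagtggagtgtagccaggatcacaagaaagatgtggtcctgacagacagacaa
Between windows aligned with free ends, Mup4 and Mup3 were identical at 249 of 282 columns (88.3%), Mup4 and Mup10 at 239 of 299 (79.9%) and Mup3 and Mup10 at 215 of 281 (76.5%). Over all 91 pairs of the 14 windows, identity ran from 74.1% to 99.0% with a median of 91.6%. Aligned end to end, which was tried first and counts the offset between annotated starts as gaps, the median was 73.4% and Mup4 and Mup3 were 77.6% identical. TATATAA occurred in 13 of 14 Mup windows and in 3.24% of 32851 windows of all genes. Its first base lay at -29 from the start in Mup4 and at -11 in Mup3, while Mup10 had overlapping matches of opposite strands at -31 and -30. Over the 13 windows it ran from -31 to 13, being at -2 in Mup11 and downstream of the annotated start in Mup14. A STAT5 motif, TTCNNNGAA, was found in 0 of 14 Mup windows against 8.30% of all windows. The letters TGTTCT, part of a glucocorticoid receptor element, were in 2 of 14, Mup3 and Mup21, against 19.0% of all windows. A C/EBP motif, TTGCNNAA, was in 0 of 14 (10.8% of all windows), and TGTTTNC, searched for FOXA factors, was in 13 of 14, all but Mup3 (20.5%). The letters TATATAA were chosen after the windows had been read. TATAAA, searched first, was in 2 of 14, Mup4 and Mup6, against 13.6% of all windows, and in both it overlapped TATATAA. All 6 motifs were searched on both strands, and these are letter matches within 300 bases and not measured binding. The 14 windows resemble each other, so their matches are not independent. Counts over them are therefore not comparable with shares over unrelated windows as if each copy were separate.

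All 6 arrays could be used, and 1 stood apart for the Mup probes. Between 21698 and 29055 probes were well above background on an array, and the Mup probes were well above background on all 6 arrays, with no outlier flag. Slide and scan were common to arrays of equal replicate number, and each of 3 slides carried 1 array of either diet. CFD diet replicate 2 had the highest signal of the 3 CFD diet arrays at all 7 Mup probes. On the log2 scale, after each array was set relative to its 75th percentile, it lay 2.47 to 5.05 above the mean of the other CFD diet arrays. That percentile was 404 on CFD diet replicate 2 against 618 and 670 on replicates 1 and 3, so the scaling itself widened this gap. Results are therefore given with and without CFD diet replicate 2. That array was picked by these same probes, so leaving it out had to enlarge every fall. The p-values and counts without it are a description and give no added support.

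**Figure D1:**
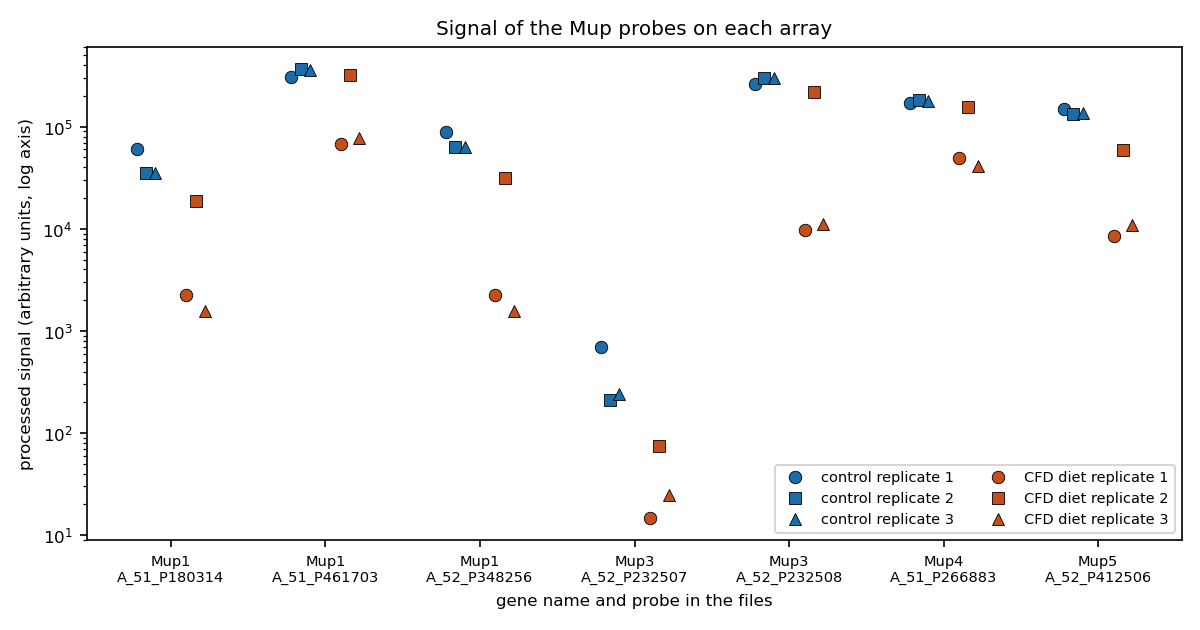
Processed signal of each Mup probe (arbitrary units, log axis) on the 3 control arrays (blue) and 3 CFD diet arrays (orange), with 1 point per array and the marker giving the replicate number. CFD diet replicate 2 (orange square) lies above the other CFD diet arrays at all 7 probes, and at Mup1 probe A_51_P461703 it lies above control replicate 1; levels of different probes are not comparable.

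Mup signals were lower on the CFD diet. In a limma fit over all 23488 tested probes, 5 of 7 Mup probes fell at an adjusted p below 0.05 and 0 rose, where 27.6% of all tested probes fell and 22.1% rose. The median Mup log2 fold change was -3.79, against -0.12 over all tested probes. At 6 of 7 probes every CFD diet array lay below every control array, as did 34.9% of all tested probes. The count of 5 became 7 without CFD diet replicate 2 and 7 with the slide (replicate number) as a block. It became 2, 2 and 3 on leaving out control replicates 1, 2 and 3, and 2 and 1 on leaving out CFD diet replicates 1 and 3. Fold changes of all 7 were negative in each of these fits. Scaling each array to its median in place of its 75th percentile gave 8868 falls and 3984 rises over the array in place of 6477 and 5194, and it called all 7 Mup probes lower.

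The 3 probes named Mup1, for one of the abundant urinary proteins, differed in their values. At A_52_P348256 the processed signal was 88631, 63528 and 62818 in control livers 1 to 3 and 2276, 31346 and 1573 in CFD diet livers 1 to 3. The groups did not overlap, and replicate 2 of the CFD diet was far above the other two CFD diet arrays. The log2 fold change was -4.33 ± 1.22 (moderated limma SE, n = 3 and 3, limma adjusted p 0.0238), a signal 20.2-fold lower. Within slides 1 to 3 the difference was -5.78, -1.17 and -6.06. Without CFD diet replicate 2 it was -5.91 (limma adjusted p 0.000172), and leaving out any other single array took the limma adjusted p to between 0.0572 and 0.0734.

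Mup1 probe A_51_P180314, the probe tied to Mup10, fell as well. Its signal was 60304, 35414 and 35608 in control livers and 2265, 18713 and 1558 in CFD diet livers. Groups did not overlap, and control replicate 1 was the highest array. The fall was 14.4-fold (log2 fold change -3.85 ± 1.04, limma adjusted p 0.0207). Slides 1 and 3 gave -5.23 and -5.25, and slide 2 gave -1.07. Without CFD diet replicate 2 the log2 fold change was -5.18 (limma adjusted p 0.000240). The call was lost without control replicate 1 (limma adjusted p 0.0573), control replicate 2 (0.0501), CFD diet replicate 1 (0.0653) or CFD diet replicate 3 (0.0618).

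Mup1 probe A_51_P461703, whose transcripts belong to 3 genes, did not pass the test. Control arrays read 304951, 364260 and 357113, and CFD diet arrays read 67550, 324655 and 77536. Here the groups overlapped, because CFD diet replicate 2 exceeded control replicate 1, while the other two CFD diet arrays were far below all controls. The log2 fold change was -1.97 ± 0.74 (limma adjusted p 0.0625). It passed with the slide as a block (limma adjusted p 0.0426) and without CFD diet replicate 2, where it was -2.92 (limma adjusted p 0.000305). The difference in slide 2 was -0.31, against -2.67 and -2.94 in slides 1 and 3.

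Mup3 probes, for another urinary protein of the cluster, fell by like amounts in the reported fit. At probe A_52_P232508 the controls read 264841, 303025 and 300923 and the CFD diet arrays 9802, 217986 and 11189. The groups did not overlap, but CFD diet replicate 2 kept most of the control signal. The log2 fold change was -3.79 ± 1.30 (limma adjusted p 0.0466), a 13.8-fold lower signal. Slides gave -5.25, -0.62 and -5.49. Leaving out CFD diet replicate 2 gave -5.47 (limma adjusted p 0.000162), and leaving out any other single array ended the call, with limma adjusted p between 0.0876 and 0.141.

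The other Mup3 probe, A_52_P232507, read 699, 209 and 242 in control livers and 14.8, 74.7 and 24.6 in CFD diet livers. Groups did not overlap, and control replicate 1 was the highest. Its log2 fold change of -3.91 ± 0.79 had the lowest adjusted p of the 7 (limma, 0.00688), and it was called in all 14 alternative fits. This probe was dim: on CFD diet arrays 1 and 3 its signals of 14.8 and 24.6 lay below the array medians, 49.8 and 49.5. With normexp background correction (an offset of 50) the size came down to -2.16, while A_52_P232508 stayed at -3.78. Within slides the difference was -6.06, -1.63 and -4.04, and without CFD diet replicate 2 the fold change was -4.79.

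The Mup4 probe had one of the 2 smallest differences. Mup4 encodes a urinary protein that is also made in nasal tissue. It read 172662, 181907 and 178840 in control livers and 49710, 157791 and 41591 in CFD diet livers. The groups did not overlap, with CFD diet replicate 2 just under the controls. The log2 fold change of -1.83 ± 0.65 did not pass (limma adjusted p 0.0521) and did with the slide as a block (0.0407). Without CFD diet replicate 2 it was -2.65 (limma adjusted p 0.000340), and in slide 2 alone it was -0.35.

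Mup5, at a single probe, showed a clearer gap between groups. Control arrays read 148232, 132638 and 134870, and CFD diet arrays read 8591, 58861 and 10966. All CFD diet arrays lay below all control arrays, and replicate 2 was the highest of them. The log2 fold change was -3.43 ± 0.84 (limma adjusted p 0.0145), with -4.60, -1.32 and -4.36 within slides 1 to 3. Without CFD diet replicate 2 it was -4.52 (limma adjusted p 0.000162), and without CFD diet replicate 3 it was -2.94 and lost the call (0.0519).

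**Figure D2:**
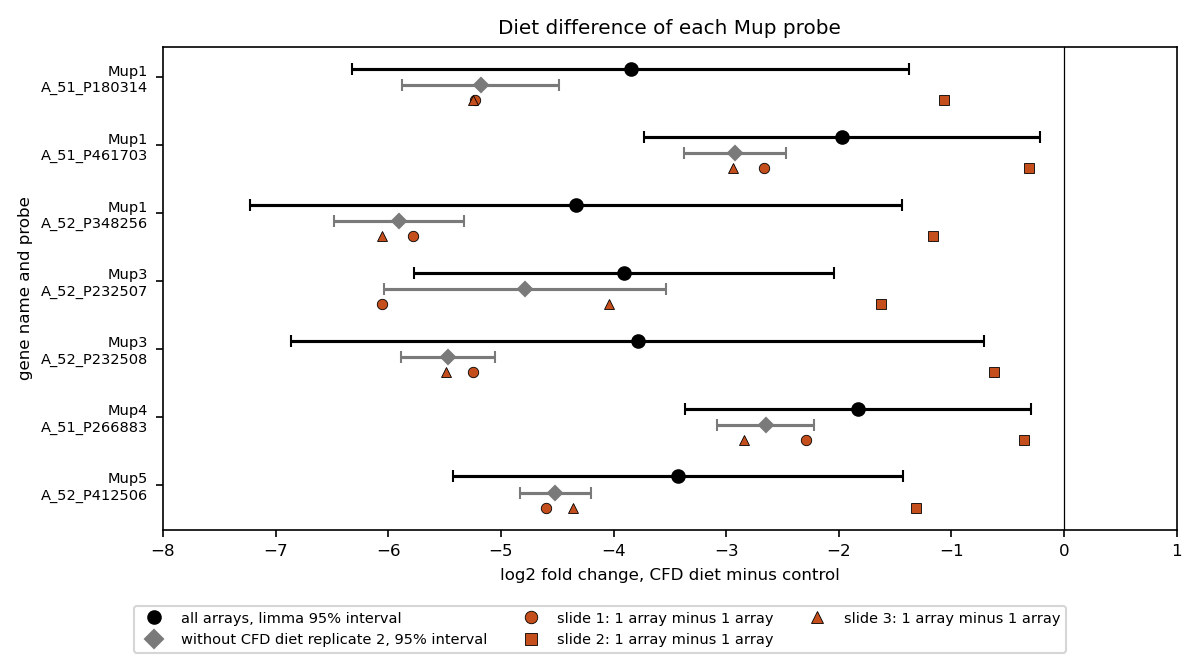
Log2 fold change of each Mup probe, CFD diet minus control, with limma 95% intervals over all arrays (black) and without CFD diet replicate 2 (grey), and the single difference within each slide (orange). All points lie below 0, and slide 2 gave the smallest difference at all 7 probes, between -0.31 and -1.63. The grey intervals leave out an array picked by these same probes, so their narrowness gives no added support.

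The spread between CFD diet arrays was wide at these probes. The standard deviation of the normalised log2 signal ran from 1.44 to 2.92 over the 3 CFD diet arrays and from 0.06 to 0.83 over the 3 control arrays. Medians over all tested probes were 0.22 and 0.15. Of all tested probes, 336 (1.43%) had a standard deviation above 1 on the CFD diet, and all 7 Mup probes were among them. The probes moved together across arrays, with pairwise Pearson correlations of 0.889 to 0.999 over the 6 arrays. That range describes arrays of 2 groups that share the diet difference, and near-identical copies share sequence.

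Responses were set against each other in all 21 pairs of Mup probes. In the reported fit, the Mup4 probe and Mup1 probe A_51_P461703 had smaller falls than each of the other 5 probes. The log2 gaps were 1.45 to 2.51, with no overlap between groups in the per-array differences. The exact permutation test, two-sided, gave p = 0.1 for these pairs, the smallest that 3 against 3 arrays allow, and 0.21 after Benjamini-Hochberg adjustment over the 21 pairs. No pair could therefore pass. The Mup4 probe and A_51_P461703 differed from each other by 0.15 ± 0.19 (SE), and the pair of Mup3 probes by -0.12 ± 1.02, both within their error. Under normexp correction the Mup3 pair read -2.16 (A_52_P232507) and -3.78 (A_52_P232508). Mup4 and A_51_P461703 then read -1.84 and -1.99, so their gaps to A_52_P232507 were far smaller than in the reported fit. The remaining probes read -4.28 to -3.43 under that correction.

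A further 3 probes carry a urinary protein description without a Mup name. A probe for a fragment described as major urinary protein III, TC1533197, differed by -4.78 ± 1.35 (limma adjusted p 0.0244). That call was lost on leaving out any single array other than CFD diet replicate 2 (limma adjusted p 0.0580 to 0.0805), without the filter on dim probes (0.0804) and with trend and robust eBayes (0.0532). The probe of transcript ENSMUST00000098050, described as similar to major urinary protein 4, differed by -4.07 ± 0.97 (limma adjusted p 0.0131), a call lost without the filter on dim probes (0.0509). LOC620807, which RefSeq now calls Mup6, differed by -4.40 ± 0.97 (limma adjusted p 0.00952). All 3 fell, and whether their fold changes differed from those of the named probes was not tested.

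Genes that set the hormonal state of hepatocytes were measured in the same fit, with 1 probe per gene. Of 33 tested growth hormone, STAT5 and hepatic regulators, 20 fell and 2 rose, where 27.4% of 15915 tested genes fell and 23.7% rose. Their median log2 fold change was -0.73, against -0.11 over all genes. Ghr, the growth hormone receptor, had normalised log2 levels of 6.14, 6.25 and 6.21 in control livers and 2.90, 4.84 and 3.20 in CFD diet livers. CFD diet replicate 2 was again the highest of its group, without overlap, and the log2 fold change was -2.55 ± 0.48 (limma adjusted p 0.00538). All 5 Ghr probes fell, by 1.24 to 2.64 on the log2 scale.

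Stat5b, which carries the growth hormone signal to the nucleus, read 2.61, 2.47 and 2.65 in control livers and 1.86, 1.91 and 1.82 in CFD diet livers. Its CFD diet arrays lay close together, and it fell by 0.72 ± 0.11 on the log2 scale (limma adjusted p 0.00304). Hnf4a, a nuclear receptor that maintains hepatocyte identity, fell by 1.00 ± 0.19 (limma adjusted p 0.00523), with slide differences of -1.23, -0.45 and -1.33. Insr, the insulin receptor, had a log2 fold change of -1.26 ± 0.15 (limma adjusted p 0.00101).

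Of the regulators that rose, Socs3, an inhibitor of cytokine and growth hormone signalling, changed by 0.96 ± 0.14 (limma adjusted p 0.00214). Igfbp3, which binds insulin-like growth factors in blood, rose by 0.85 ± 0.23 at 1 probe (limma adjusted p 0.0203), while its other tested probe read -0.39. That call was lost without control replicate 1 (limma adjusted p 0.0614), control replicate 3 (0.0699) or CFD diet replicate 3 (0.0508). Zhx2, a regulator of several liver genes, fell by 0.87 ± 0.12 (limma adjusted p 0.00183), but under normexp background correction it read -0.20 and was not called.

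Other male-biased liver genes mostly fell as well. Of 20 tested, 19 fell and 1 rose, against 27.4% and 23.7% of all tested genes, and the median log2 fold change was -2.46. Their medians within slides 1 to 3 were -2.83, -1.54 and -2.97, while those of the Mup probes were -5.23, -1.07 and -4.36. The list ran down to -7.13 at Slco1a1, whose slide differences of -9.97, -1.62 and -9.80 were also smallest in slide 2. The genes described next had the lowest adjusted p and not the largest falls. Cyp4a12a, a male-specific fatty acid hydroxylase, fell by 1.18 ± 0.16 (limma adjusted p 0.00167) at the probe of higher mean signal, and its other probe read -4.52. Ces2e, a carboxylesterase, fell by 1.12 ± 0.16 (limma adjusted p 0.00229). The exception was Nat8, an acetyltransferase, which rose by 1.01 ± 0.14 (limma adjusted p 0.00165).

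Female-biased genes went both ways. Of 21 tested, 12 rose and 6 fell, against 23.7% and 27.4% of all tested genes, with a median of 1.50 and medians of 1.39, 0.84 and 1.36 within slides 1 to 3. Cyp2b9, a female-predominant cytochrome P450, rose by 2.00 ± 0.15 (limma adjusted p 0.000196). Sult2a2, a hydroxysteroid sulfotransferase, rose by 6.82 ± 0.55 (limma adjusted p 0.000259), from a signal well above background on only 1 control array. Cyp17a1, a steroid hydroxylase, fell by 0.89 ± 0.18 (limma adjusted p 0.00712), and Cyp3a16, another cytochrome P450, by 1.25 ± 0.26 (limma adjusted p 0.00726).

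**Figure D3:**
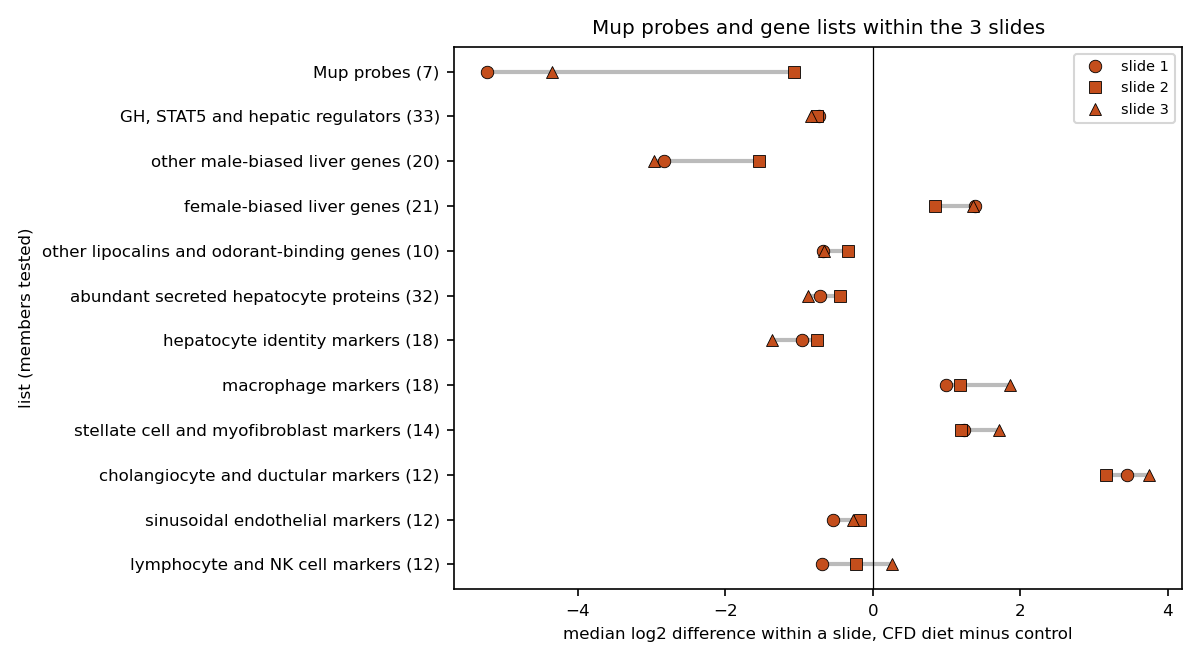
Median log2 difference within each of 3 slides, CFD diet minus control, for the 7 Mup probes and 11 gene lists; each point compares 1 CFD diet array with 1 control array, and the grey line spans the slides. The Mup probes run from -5.23 to -1.07 and the other male-biased genes from -2.97 to -1.54, while the regulators stay between -0.83 and -0.73.

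Other lipocalins and odorant-binding genes, the wider family of the urinary proteins, were mixed. Of 10 tested, 4 fell and 2 rose, where 27.4% of all tested genes fell and 23.7% rose, and the median was -0.60. The count of 4 became 1 without control replicate 2, CFD diet replicate 1 or CFD diet replicate 3, and 6 without CFD diet replicate 2. Lcn2, an iron-siderophore binding lipocalin of the acute phase, rose by 7.06 ± 0.59 (limma adjusted p 0.000286) and was well above background on 2 of 3 control arrays. Orm3, an acute-phase orosomucoid, rose by 2.99 ± 0.25 (limma adjusted p 0.000309). C8g, the lipocalin chain of complement factor 8, fell by 1.82 ± 0.36 (limma adjusted p 0.00622), and its slide differences of -2.28, -0.90 and -2.28 were smallest in slide 2. Ptgds, a prostaglandin synthase of the same fold, fell by 1.32 ± 0.35 (limma adjusted p 0.0192). That call was lost without control replicate 2 (limma adjusted p 0.0552), CFD diet replicate 1 (0.0556) or CFD diet replicate 3 (0.0633), and under normexp correction, where it read -0.55.

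Markers of liver cell types moved with the diet too. All 18 hepatocyte identity markers were tested, and 14 fell and 0 rose, against 27.4% and 23.7% of all tested genes, with a median log2 fold change of -1.02. Their summed signal, in multiples of the array's 75th percentile, was 3072 to 3627 in control livers and 1615, 2596 and 1604 on CFD diet arrays 1 to 3. CFD diet replicate 2 was the highest of its group here as at the Mup probes. The abundant secreted proteins of hepatocytes had a median of -0.66, with 20 of 32 falling and 1, Hpx, rising. The 20 became 11 and 12 on leaving out control replicates 2 and 3, 12 and 10 on leaving out CFD diet replicates 1 and 3, and 28 without CFD diet replicate 2. Hpx, the haem-binding protein haemopexin, rose by 0.49 ± 0.14 (limma adjusted p 0.0284) and was not called without any 1 control array, without CFD diet replicate 3 or with the slide as a block (0.0688). With scaling to the array median it read 0.28 and was not called (limma adjusted p 0.229). The call was also lost without the filter on dim probes (0.104) and with trend and robust eBayes (0.0583). Among them Fga, a fibrinogen chain, fell by 1.43 ± 0.21 (limma adjusted p 0.00247) and Plg, plasminogen, by 1.48 ± 0.22 (limma adjusted p 0.00238).

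Markers of macrophages, stellate cells and bile ducts mostly rose, where 23.7% of all tested genes rose and 27.4% fell. Macrophage markers rose in 15 of 18 and fell in 2, with summed signals of 190 to 263 in control livers and 477 to 635 in CFD diet livers. All 14 stellate cell and myofibroblast markers rose, with sums of 81.2 to 92.8 and 224 to 257. Cholangiocyte and ductular markers rose in 10 of 12, with sums of 8.22 to 11.0 and 106 to 137, and Cftr and Cldn4 were not above background on any control array. Of 12 sinusoidal endothelial markers 5 fell and 1 rose (sums of 47.2 to 51.5 and 33.1 to 40.6), and of 12 lymphocyte and NK cell markers 2 fell and 1 rose (sums of 2.40 to 3.53 and 3.85 to 5.61), the last of these below the shares over all genes. The macrophage count of 2 that fell became 0 when any array but CFD diet replicate 2 was left out. The lymphocyte count of 2 became 1 on leaving out control replicate 1 and 0 on leaving out CFD diet replicate 3, and the endothelial count of 1 that rose became 2 without CFD diet replicate 1. That lymphocyte count was 5 with scaling to the array median and 4 with quantile normalization. It was 1 with trend and robust eBayes, and 0 with normexp or without the filter on dim probes. In whole liver RNA, fewer hepatocytes and less Mup RNA per hepatocyte cannot be told apart, and the part of cell makeup in the Mup difference was not tested.

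Genes most like the Mup probes were sought among 15873 tested genes with a value on all 6 arrays, by Pearson correlation with the mean normalised log2 level of the 7 probes. That mean was 7.30, 7.19 and 7.08 in control livers and 2.75, 6.27 and 2.65 in CFD diet livers. The 5 highest were Dct (0.9994), Slco1a1 (0.9993), the urinary protein fragment TC1533197 (0.9991), Mbl2 (0.9988) and BC093515 (0.998). Slco1a1, a male-biased uptake transporter for organic anions, read 3.34, 3.03 and 3.18 in control livers and -6.63, 1.41 and -6.62 in CFD diet livers. It was well above background on 2 of 3 CFD diet arrays, so its lowest levels are near the floor. Mbl2, a mannose-binding lectin secreted by hepatocytes, read 7.97, 8.05 and 8.13 and then 2.43, 6.85 and 2.32. In each, CFD diet replicate 2 was nearer to the controls on the log2 scale and the other two were far below.

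Within groups, where the diet difference was removed, the highest were Aox3 (0.9996), Sult2a8 (0.9991), LOC674035 (0.9990), Pgrmc1 (0.9990) and Pp2d1 (0.9989). These values mainly describe the gap between CFD diet replicate 2 and the other CFD diet arrays. Pgrmc1, a membrane-bound haem protein, read 7.59, 7.58 and 7.59 in control livers and 6.42, 6.95 and 6.41 in CFD diet livers, a far smaller span than the Mup mean. Pp2d1 followed the same order among CFD diet arrays with a diet difference of 0.16 ± 0.23, which did not pass (limma adjusted p 0.593).

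**Figure D4:**
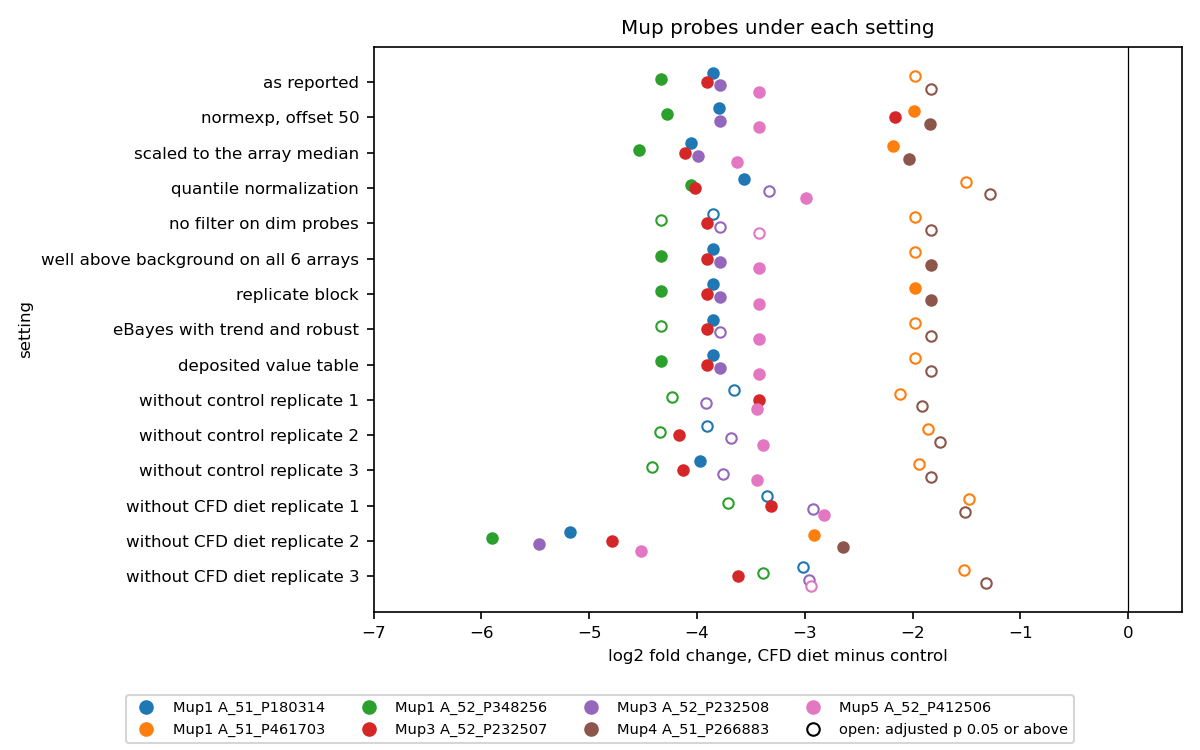
Log2 fold change of each Mup probe, CFD diet minus control, under the reported setting and 14 alternatives; filled points have a limma adjusted p below 0.05 and open points do not. All fold changes are negative, the count of filled points runs from 1 to 7, and Mup3 probe A_52_P232507 (red) is filled under every setting shown.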

How the data were processed

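Liver RNA of 3 control and 3 CFD diet samples was measured on 1-colour Agilent arrays. The deposited scanner files hold an intensity per spot, background-subtracted by Feature Extraction 10.5.1.1 per the file headers, and the submitters' processing notes name 10.7. The deposited value table, also intensity on a linear scale, served as an alternative: each of its columns matched the scanner file of another replicate of its own group, so replicates are numbered by the scanner files and the intended numbering stays unknown. There were 0 unmapped columns.

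Control and outlier spots were left out. The log2 of each deposited signal minus the array's 75th percentile was fitted with limma 3.58.1 in R 4.3.3 (lmFit, eBayes; Benjamini-Hochberg; adjusted p below 0.05). A probe was tested where every array of 1 group or both flagged it as well above background. A gene in a list took its tested probe with the highest mean. Errors of limma fold changes are standard errors moderated by eBayes, which draws on the spread of all probes or genes in the fit. Errors of differences between Mup probes are plain standard errors without moderation. The number of arrays limits the precision.

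Same-numbered arrays shared a slide and scan per the headers, but their deviations from group means correlated at only 0.10, -0.08 and 0.00, so slide is an alternative block. The members and lists were chosen with earlier results of these data known. From each list at most 2 called genes per direction, those of lowest adjusted p, could be named, with Ghr, Stat5b, Hnf4a and Zhx2 always given. Some genes that this rule or a marker list covers are not reported here by name. All 6 motifs searched are reported; they were chosen after the array results were known, and TATATAA after the promoter windows were seen. Alternatives were normexp, median and quantile scaling, other filters, trend and robust eBayes, the value table, the replicate block, single arrays left out and, for lists, the mean over a gene's probes.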

Additional observations from a re-analysis of the deposited data

How the results depend on the processing

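No Mup fold change turned its sign in any alternative. Of the alternative Mup fold changes, 67 kept their side of the threshold, 22 lost the call and 9 gained it. Without a filter on dim probes, 7766 probes were called in place of 11671 and 3661 were lower in place of 6477, and 1 Mup probe was called in place of 5: the values were A_51_P180314 -3.85 (limma adjusted p 0.0714), A_52_P232508 -3.79 (0.129), A_52_P348256 -4.33 (0.0789) and Mup5 -3.43 (0.0548). With trend and robust eBayes 3 Mup probes were called, and A_52_P232508 stayed at -3.79 (0.0839) and A_52_P348256 at -4.33 (0.0520). Quantile normalization left A_52_P232508 at -3.33 (0.0598). Calls were gained by Mup4 and A_51_P461703 with normexp (-1.84 and -1.99), with scaling to the array median (-2.03 and -2.18) and with the replicate block (-1.83 and -1.97, 7 Mup probes called), and by Mup4 alone under the filter on all 6 arrays (-1.83). The block changed no other Mup call. Scaling moved the median of all probes from -0.12 to between -0.33 and -0.06.

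Leaving out single arrays gave 1 to 7 called Mup probes and 4164 to 7033 lower probes over the array. Fold changes then ran from -5.18 to -3.02 at A_51_P180314, -2.65 to -1.32 at Mup4, -2.92 to -1.48 at A_51_P461703, -5.47 to -2.93 at A_52_P232508, -5.91 to -3.38 at A_52_P348256, -4.52 to -2.82 at Mup5 and -4.79 to -3.31 at A_52_P232507, with the lowest of each without CFD diet replicate 2. Of other named genes' fold changes, 561 kept their side and 49 lost the call. The cause of these changes was not tested. The unfiltered fit held more probes, 41174 in place of 23488, and its standard errors were larger at every Mup probe. At A_51_P180314 the error was 1.14 in place of 1.04. Precision is limited by 3 arrays per group.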
